A study of Mus musculus with 9 samples.

Results

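The 9 genes described here encode the receptors of TGF-beta, the SMAD proteins that carry its signal and the nuclear repressors that limit it. They were chosen by symbol, with earlier results of these data known. All 9 of them were among the 23284 gene symbols in each sample: the receptor genes Tgfbr1 and Tgfbr2, the receptor-regulated Smad2 and Smad3, the common partner Smad4, the inhibitory Smad7, and the repressors Ski, Skil and Tgif1. RNA was sequenced from 9 samples of myeloid-derived suppressor cells (MDSCs), immature myeloid cells that accumulate in tumour-bearing mice and restrain T cells. There were 3 groups of 3 samples, all from the spleen of mice carrying subcutaneous allografts of SCT, a spindle cell tumour line that had been derived from a p16 KO mouse. The first group was PMN-MDSCs, the neutrophil-like subset taken as Ly6G+ cells, from C57BL/6J wild-type (WT) mice. The second was Mo-MDSCs, the monocyte-like subset taken as Ly6G- Gr-1+ cells, from C57BL/6J WT mice. The third was Mo-MDSCs from C57BL/6 mice labelled as p16/p21 double knockout (DKO), in which p16 is a product of Cdkn2a and p21 the product of Cdkn1a. The strain label thus differed between WT and DKO samples along with the genotype. The labels gave an age of 3 weeks for every sample, whereas the methods gave 12 to 20 weeks at inoculation and collection 3 weeks later. Subsets were enriched with a magnetic bead kit, and nothing in the labels says whether replicates came from separate mice or pools, so the p-values below measure the spread between these samples, which may be technical.

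TGF-beta binds a type II receptor, which recruits and phosphorylates a type I receptor. The activated type I receptor phosphorylates SMAD2 and SMAD3, which join SMAD4, enter the nucleus and act on target genes with other transcription factors. SMAD7 blocks the activated type I receptor and is itself induced by the pathway, SKI and SKIL (SnoN) recruit corepressors to SMAD complexes, and TGIF1 is a homeodomain repressor that binds SMAD2. Cyclin-dependent kinases, the targets of p16 and p21, can phosphorylate the SMAD3 linker and lower its activity. In MDSCs, TGF-beta signalling is known as one of the pathways of suppressive function and differentiation. The study asked how loss of p16 and p21 acts on Mo-MDSCs, with SMAD3 as one of the proteins followed. mRNA levels, as measured here, do not show phosphorylation or location of SMAD proteins.

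Values were FPKM as deposited, which scale mapped fragments to transcript length and to the size of the library. Read counts were not used here, so the depth in reads is unknown. Relative depth, read from the steps between low values, ranged from 0.809 to 1.31 of the first WT Mo-MDSC sample, and between 11299 and 11418 genes reached 1 FPKM in each sample. FPKM over all genes summed to 711675 to 916642 in PMN-MDSC samples. These sums were 549976 to 618250 in WT Mo-MDSC samples and 494252 to 534354 in the DKO samples. By the library numbers in the labels, replicate 1 of each group came from an earlier library series and replicates 2 and 3 from a later one. The label of the third group was checked first. Cdkn1a, at chr17:29090976-29100727 in GRCm38, had 8.18, 6.46 and 8.04 FPKM in WT Mo-MDSCs and 5.55, 8.52 and 6.00 FPKM in the DKO samples, so the groups overlapped. Cdkn2a had 0.718, 0.772 and 0.432 FPKM in WT Mo-MDSCs and 0.258, 0.586 and 0 FPKM in the DKO samples, also overlapping. A value summed over a whole gene cannot show whether particular exons are missing, and the third group is therefore called DKO-labelled throughout.

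Sequences upstream of 3 members whose mRNA differed between the subsets are shown, because SMAD3 and SMAD4 bind a short element, CAGAC or its complement GTCTG, in many TGF-beta target genes. Each run is the RefSeq window (GRCm38.p6) from 250 to 21 bases before the transcript start, written in the direction of the gene. The Tgfbr2 window is chr9:116175384-116175613 on the minus strand, the Smad3 window is chr9:63758015-63758244 on the minus strand, and the Tgif1 window, that of the outermost of 5 annotated starts, is chr17:70853553-70853782 on the minus strand. Capitals mark the element where it occurs on either strand.
Tgfbr2: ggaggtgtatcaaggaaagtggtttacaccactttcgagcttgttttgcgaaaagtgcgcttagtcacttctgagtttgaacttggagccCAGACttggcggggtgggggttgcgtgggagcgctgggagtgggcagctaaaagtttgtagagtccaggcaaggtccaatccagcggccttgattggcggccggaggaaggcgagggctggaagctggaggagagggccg
Smad3: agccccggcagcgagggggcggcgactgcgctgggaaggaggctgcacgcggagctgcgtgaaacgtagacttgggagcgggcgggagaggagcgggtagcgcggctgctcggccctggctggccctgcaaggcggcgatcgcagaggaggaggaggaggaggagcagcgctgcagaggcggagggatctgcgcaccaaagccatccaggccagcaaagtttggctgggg
Tgif1: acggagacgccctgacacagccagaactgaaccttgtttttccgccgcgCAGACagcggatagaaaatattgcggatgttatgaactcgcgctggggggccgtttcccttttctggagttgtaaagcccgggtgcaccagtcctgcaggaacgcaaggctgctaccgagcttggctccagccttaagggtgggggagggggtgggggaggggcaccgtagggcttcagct
Counted from the start site, CAGAC began at position -160 in the Tgfbr2 window and at position -201 in the Tgif1 window, and the Smad3 window held no match in either orientation. The window of Ski, which also differed between the subsets and is not shown, held 0 matches. Among the Tgif1 windows not shown, that of start 2 held 2 matches and those of starts 3, 4 and 5 held 0. Of 32851 windows of the same 230 bases in the table, 39.7% held the element, as did 4 of 10 windows belonging to 5 members. A match in these letters is a description and not a binding site.

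All 9 members were transcribed in every sample. Their levels ran from 3.31 FPKM (Smad7, DKO-labelled) to 92.4 FPKM (Tgfbr2, PMN-MDSCs). Tgfbr2 stood above 90.0% of the 11726 genes that reached 1 FPKM in at least 3 of the 9 samples, by its mean over all samples, and Smad7 above 21.7% of them. In PMN-MDSCs the members followed the order Tgfbr2, Tgfbr1, Smad4, Ski, Tgif1, Smad3, Skil, Smad2 and Smad7 on the FPKM scale, which is per transcript length, and only the neighbours Smad3 and Skil had overlapping ranges. In WT Mo-MDSCs Tgif1 came next after the receptors, ahead of Smad4 and Ski, and Skil stood ahead of Smad3 with overlapping ranges. The DKO-labelled samples had the same order of means as WT Mo-MDSCs, and there Smad4 and Ski were the overlapping neighbours.

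**Figure D1:**
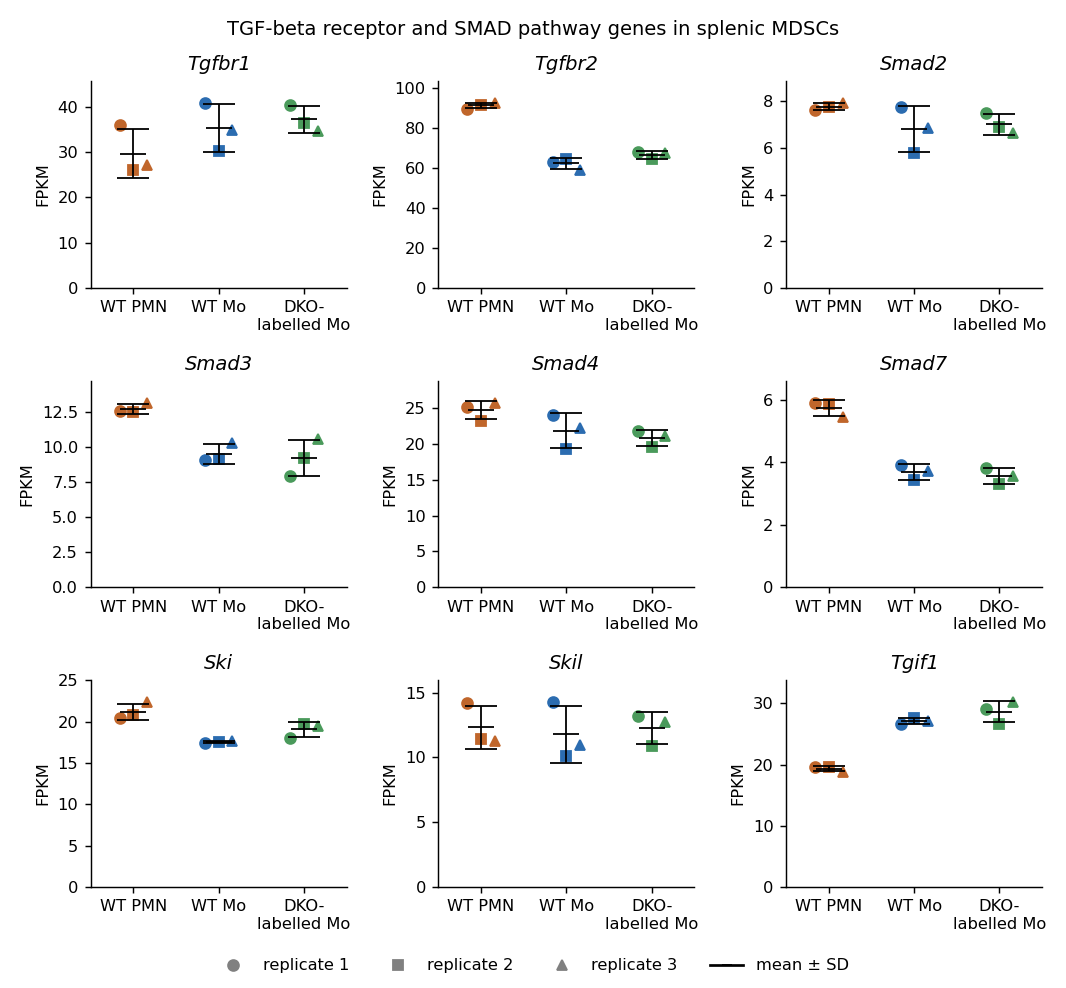
FPKM (vertical axis from 0, a separate scale in each panel) of the 9 members in WT PMN-MDSCs, WT Mo-MDSCs and DKO-labelled Mo-MDSCs; symbols are samples by replicate number, and bars are the mean ± SD (n = 3). Tgfbr2, Smad3, Smad7 and Ski lie lower and Tgif1 higher in each WT Mo-MDSC sample than in any PMN-MDSC sample, while both Mo-MDSC groups overlap for every member but Ski.

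The comparison of WT Mo-MDSCs with WT PMN-MDSCs asks how the subsets differ. Mo-MDSCs had less mRNA of the type II receptor Tgfbr2, of Smad3, of the inhibitory Smad7 and of Ski, with changes of -17.2 to -35.1%, and 40.0% more of the repressor Tgif1. In such bulk samples, fewer cells of a type and less RNA per cell cannot be told apart. Of 9 members, 5 thus differed at an adjusted p-value below 0.05 (limma on log2(FPKM + 0.1), Benjamini-Hochberg adjusted over all 11491 genes tested), 1 higher and 4 lower. In this comparison 39.1% of all genes tested differed at this threshold, 18.5% higher and 20.6% lower, so a share of 5 in 9 was not far from that of genes in general. The same 5 members were those whose groups did not overlap, which held for 52.5% of all genes tested. The median difference of the members was -0.20 on the log2 scale, beside 0.01 for all genes. With 3 samples in each group, 0.1 is the smallest p-value of the exact permutation test, which gave 0.1 for each of these 5 members.

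Of the receptors, Tgfbr2 is the one that binds the ligand first. It had 89.7, 91.8 and 92.4 FPKM in PMN-MDSCs and 63.1, 64.7 and 59.0 FPKM in WT Mo-MDSCs. Every Mo-MDSC sample was lower than every PMN-MDSC sample. The difference was -0.55 on the log2 scale (SE 0.07, 95% confidence interval -0.71 to -0.39, adjusted p = 0.000931, limma), and after quantile normalization it was -0.28, still past the threshold. Tgfbr1, the type I receptor that carries the signal to SMADs, had 36.0, 26.1 and 27.1 FPKM in PMN-MDSCs and 40.9, 30.3 and 34.9 FPKM in WT Mo-MDSCs. The groups overlapped, but replicate 1 was the highest of each group. The difference in Tgfbr1 was 0.25 (SE 0.16, adjusted p = 0.239, limma) and missed the threshold. Same-numbered samples deviated together in this comparison, and once the replicate block was added the adjusted p-value of Tgfbr1 was 0.0103 at the same difference. Within samples, the ratio of Tgfbr2 to Tgfbr1 on the FPKM scale ranged from 2.49 to 3.51 for PMN-MDSCs, whereas it ranged from 1.54 to 2.13 for WT and from 1.68 to 1.93 for DKO-labelled Mo-MDSCs.

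Among receptor-regulated SMADs, Smad3, whose protein binds DNA directly, had 12.6, 12.5 and 13.1 FPKM in PMN-MDSCs and 9.05, 9.10 and 10.3 FPKM in WT Mo-MDSCs. No Mo-MDSC sample reached the lowest PMN-MDSC sample. The difference was -0.42 (SE 0.08, 95% confidence interval -0.62 to -0.22, adjusted p = 0.00725, limma), and with the later library series alone, replicates 2 and 3, the difference in Smad3 was -0.40 with an adjusted p of 0.0569. Smad2, whose main protein form needs SMAD4 to reach DNA, had 7.63, 7.77 and 7.93 FPKM in PMN-MDSCs and 7.76, 5.79 and 6.85 FPKM in WT Mo-MDSCs. The PMN-MDSC samples were close together and the Mo-MDSC samples spread around and below them. The difference in Smad2 was -0.20 (SE 0.12, adjusted p = 0.224, limma) and its 95% confidence interval ran from -0.48 to 0.08. The ratio of Smad3 to Smad2 within samples ranged from 1.61 to 1.66 for PMN-MDSCs, from 1.17 to 1.57 for WT and from 1.06 to 1.59 for DKO-labelled Mo-MDSCs.

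Smad4, the partner shared by TGF-beta and BMP signals, had 25.2, 23.3 and 25.8 FPKM in PMN-MDSCs and 24.1, 19.3 and 22.3 FPKM in WT Mo-MDSCs. These ranges overlapped, with replicate 2 the lowest in each group. The difference was -0.18 (SE 0.10, adjusted p = 0.196, limma), and with the replicate block the adjusted p was 0.0442. Smad7, the feedback inhibitor, had 5.90, 5.84 and 5.43 FPKM in PMN-MDSCs and 3.92, 3.42 and 3.71 FPKM in WT Mo-MDSCs. All Mo-MDSC samples were below all PMN-MDSC samples. The difference in Smad7 was -0.62 on the log2 scale (SE 0.10, 95% confidence interval -0.86 to -0.38, adjusted p = 0.00317, limma).

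The repressors did not move together. Tgif1 had 19.5, 19.6 and 18.8 FPKM in PMN-MDSCs and 26.7, 27.6 and 27.1 FPKM in WT Mo-MDSCs. Every Mo-MDSC sample was higher, and the difference was 0.49 on the log2 scale (SE 0.07, 95% confidence interval 0.33 to 0.64, adjusted p = 0.00138, limma). Ski had 20.5, 20.8 and 22.3 FPKM in PMN-MDSCs and 17.4, 17.5 and 17.7 FPKM in WT Mo-MDSCs. Ski was lower in each Mo-MDSC sample, with a difference of -0.27 (SE 0.07, adjusted p = 0.0208, limma). This was the least firm of the 5 calls, with an adjusted p of 0.0623 to 0.0688 when PMN-MDSC replicate 3 or any single one of the WT Mo-MDSC samples was left out and of 0.0787 with replicates 2 and 3 alone. Skil, the close relative of Ski whose protein is degraded upon TGF-beta signalling, had 14.2, 11.5 and 11.3 FPKM in PMN-MDSCs and 14.3, 10.1 and 10.9 FPKM in WT Mo-MDSCs. Replicate 1 was the highest in both groups, and the difference of -0.07 (SE 0.15, adjusted p = 0.741, limma) was within the spread, with a 95% confidence interval from -0.43 to 0.29. Within samples the ratio of Tgif1 to Ski ranged from 0.844 to 0.955 for PMN-MDSCs, from 1.53 to 1.58 for WT and from 1.35 to 1.62 for DKO-labelled Mo-MDSCs, so Tgif1 stood below Ski in PMN-MDSCs and above it in all Mo-MDSC samples. The ratio of Smad3 to Tgif1 ranged from 0.636 to 0.697 for PMN-MDSCs, from 0.330 to 0.380 for WT and from 0.273 to 0.349 for DKO-labelled Mo-MDSCs.

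RNA of other spleen cells was present in all samples. The subsets differed as labelled for markers of their gates: Ccr2, a monocyte chemokine receptor, lay between 2.36 and 2.51 FPKM for PMN-MDSCs and between 281 and 362 FPKM for WT Mo-MDSCs, and Cxcr2, a neutrophil chemokine receptor, between 590 and 875 FPKM and between 6.87 and 18.6 FPKM. Of 7 Mo-MDSC markers 6 were higher in every WT Mo-MDSC sample, and Csf1r overlapped at 674 to 841 and 750 to 853 FPKM. Of 6 neutrophil markers measured 3 were lower in every WT Mo-MDSC sample, and the granule genes Ngp, Ltf and Camp overlapped. The 6 red-pulp macrophage markers summed to between 5418 and 6441 FPKM for PMN-MDSCs, between 3368 and 4328 FPKM for WT and between 3596 and 5546 FPKM for DKO-labelled Mo-MDSCs, and 5 of 6 were lower in every WT Mo-MDSC than PMN-MDSC sample. The 4 B-cell markers summed to 1377 to 1568, 969 to 1098 and 1038 to 1302 FPKM, and 2 of 4, Cd79a and Cd79b, were lower in every WT Mo-MDSC sample. Both sums thus moved in the same direction as Tgfbr2, Smad3, Smad7 and Ski between the subsets, and the part of these cells in the differences was not tested. Erythroid markers summed to 1232 to 2888 FPKM with overlap for all 4 genes, whereas the T-cell, NK-cell, platelet and dendritic-cell lists each summed to at most 10.7 FPKM, and no marker of these lists was at 0 in any sample.

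**Figure D2:**
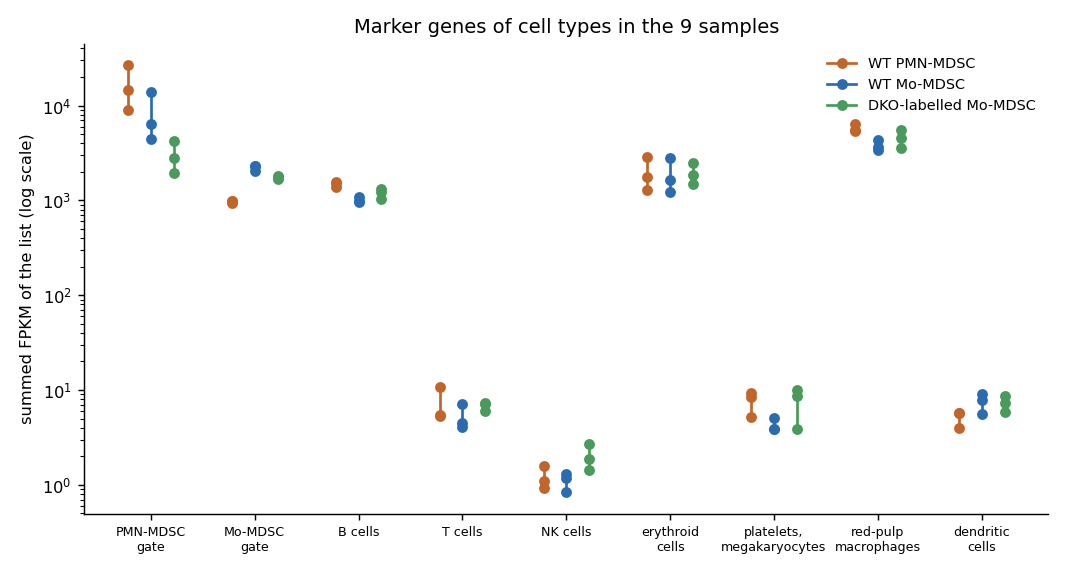
Summed FPKM (vertical axis, log scale) of marker genes of 9 cell types and gates in WT PMN-MDSCs, WT Mo-MDSCs and DKO-labelled Mo-MDSCs; the points of each line are the lowest, the median and the highest of 3 samples. Macrophage and B-cell sums lie lower for WT Mo-MDSCs than those of PMN-MDSCs, and the sums for the Mo-MDSC gate are lower in DKO-labelled than in WT Mo-MDSCs.

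Other genes of the pathway were taken from 7 lists of 96 genes in all. The lists were chosen with earlier results of these data known, so their shares are descriptions and not independent of the data. In the comparison of the subsets, 72 of them passed the filter on low values and 33 of these differed, 15 higher and 18 lower in Mo-MDSCs, which is 45.8% beside the 39.1% of all genes. Of these 33 calls 18 held under every alternative tried and 13 were lost under at least 1 of them. The other 2, Bmpr1a and Snai1, kept their calls under 10 alternatives and did not pass the filter on low values under the rest. Of the ligand genes, Tgfb1 had 154, 175 and 167 FPKM in PMN-MDSCs and 230, 222 and 233 FPKM in WT Mo-MDSCs. Tgfb1 was thus higher in every Mo-MDSC sample, by 0.47 on the log2 scale (SE 0.08, adjusted p = 0.00335, limma) and by 0.88 after quantile normalization. Tgfb2 and Tgfb3 stayed below the filter. Furin, the protease that cleaves the TGF-beta precursor, fell by 1.15 on the log2 scale, and Itgav, the alpha-v integrin that can release latent TGF-beta, was higher by 0.69, the third call in a list with 6 genes tested. The latency protein gene Lrrc33 (Nrros) had a difference of -0.07, which turned to 0.27 (adjusted p = 0.0157, limma) after quantile normalization.

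Among 9 tested receptors and receptor partners of the family, 4 were higher in WT Mo-MDSCs and 1 was lower. Bmpr1a, a type I receptor for BMPs, had 3.89, 3.39 and 4.38 FPKM in PMN-MDSCs and 0.682, 0.620 and 0.605 FPKM in WT Mo-MDSCs. Its difference was -2.43 on the log2 scale (SE 0.17, adjusted p = 7.13e-05, limma) and -1.57 with a pseudocount of 1. Acvr1 and Acvr2a, receptor genes named after activin, were higher by 0.95 and 0.76. Fkbp1a, whose protein FKBP12 holds the type I receptor inactive, was higher by 0.57, and Tgfbrap1, a receptor-associated protein, by 0.51. The BMP-regulated SMADs Smad1 and Smad5, both of the tested genes in their list, were higher by 0.28 and 0.47, although Smad1 lost its call when any 1 sample was left out (adjusted p up to 0.144, limma) and Smad5 when PMN-MDSC replicate 2 or 3 or WT Mo-MDSC replicate 1 or 2 was left out (up to 0.0750). Acvr2a lost its call without WT Mo-MDSC replicate 1 or 3 (up to 0.0598) and with replicates 2 and 3 only (0.0811). Smad1 and Smad5 differed in the opposite direction to Smad3.

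Of 19 tested regulators of SMADs and their traffic, 2 were higher and 5 lower in WT Mo-MDSCs. Zfyve9, which encodes SARA, the endosomal anchor that presents SMAD2 and SMAD3 to the receptor, had 2.38, 2.27 and 2.88 FPKM in PMN-MDSCs and 18.99, 15.4 and 21.1 FPKM in WT Mo-MDSCs. The groups were far apart, by 2.83 on the log2 scale (SE 0.15, adjusted p = 2.44e-05, limma). Ctdspl, of a family of phosphatases that act on the SMAD linker, was higher by 1.99. Lower were Ppm1a, the phosphatase of the SMAD2 and SMAD3 tail (-0.61), the ubiquitin ligases Nedd4l (-0.52), Wwp2 (-0.47) and Trim33 (-0.36), and the deubiquitinase Usp4 (-0.23). Usp4 lost its call when any 1 sample was left out (adjusted p 0.0618 to 0.125, limma) and was at -0.043 after quantile normalization. Trim33 lost its call without PMN-MDSC replicate 1 or 3 or WT Mo-MDSC replicate 2 or 3 (adjusted p up to 0.0886), and Ppm1a with replicates 2 and 3 only (0.0835). Smurf1 and Smurf2, ligases that SMAD7 brings to the receptor, missed the threshold with differences of 0.20 and -0.35. With the replicate block, Smurf2 passed it (adjusted p = 0.00811, limma), as it did without PMN-MDSC replicate 2 (0.0164).

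Nuclear partners split evenly, with 4 of 11 tested higher and 4 lower. The corepressor Ncor1, which can serve SKI, had a difference of -0.73. Runx3 and Runx1, DNA-binding partners of SMADs, were higher by 0.52 and 0.41, as was the remodelling ATPase Smarca4 by 0.33. The acetyltransferase Ep300 (-0.43), the corepressor Sin3a (-0.33) and Sp1 (-0.32) were lower. Runx1 lost its call without PMN-MDSC replicate 2 or 3 or WT Mo-MDSC replicate 1 or 3 (adjusted p up to 0.0910, limma), Smarca4 without PMN-MDSC replicate 1 or WT Mo-MDSC replicate 3 (up to 0.0691), and Sp1 without PMN-MDSC replicate 3 or WT Mo-MDSC replicate 2 or 3 (up to 0.0593). With replicates 2 and 3 only, Ep300 and Sin3a lost theirs too (0.0508 and 0.0853). Among 7 kinases of the SMAD linker 2 were lower, Mapk3 (-0.64) and Gsk3b (-0.34). Mapk3 lost its call without WT Mo-MDSC replicate 1 or 2 (adjusted p up to 0.0623, limma) and after quantile normalization, where its difference was -0.33 (0.0829). Gsk3b lost its call without PMN-MDSC replicate 1 or 3 or WT Mo-MDSC replicate 2 or 3 (up to 0.108). Cdk2 had 24.6, 22.1 and 27.2 FPKM in PMN-MDSCs and 31.8, 27.4 and 34.0 FPKM in WT Mo-MDSCs. It was higher in each Mo-MDSC sample and its difference of 0.34 missed the threshold (adjusted p = 0.0528, limma), and over the alternatives its adjusted p ran from 0.00192 with the replicate block to 0.211 with replicates 2 and 3 only. Cdk4 differed by 0.02 (adjusted p = 0.873, limma), and by 0.25 with an adjusted p of 0.0237 after quantile normalization.

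Of 18 tested genes known as targets of TGF-beta or BMP, 1 was higher and 5 were lower in WT Mo-MDSCs. Fn1, fibronectin, which is also a marker on the Mo-MDSC list, had 4.63, 6.97 and 3.80 FPKM in PMN-MDSCs and 258, 234 and 253 FPKM in WT Mo-MDSCs. The groups were apart by 5.61 on the log2 scale (SE 0.20, adjusted p = 6.54e-06, limma). Junb, an immediate-early AP-1 gene, had 665, 609 and 712 FPKM in PMN-MDSCs and 183, 162 and 168 FPKM in WT Mo-MDSCs, a difference of -1.95 (SE 0.09, adjusted p = 1.73e-05, limma). The transcription factor Snai1 had a difference of -2.74 at low level (-1.24 with a pseudocount of 1), the BMP-responsive Id1 and Id3 had -1.30 and -0.50, and Gadd45b, a stress-induced signalling protein, had -1.002. Klf10 and Tgfbi, often used as TGF-beta readouts, missed the threshold with differences of 0.07 and 0.24. Tgfbi passed it with the replicate block (adjusted p = 0.00802, limma) and after quantile normalization, where its difference was 0.70.

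**Figure D3:**
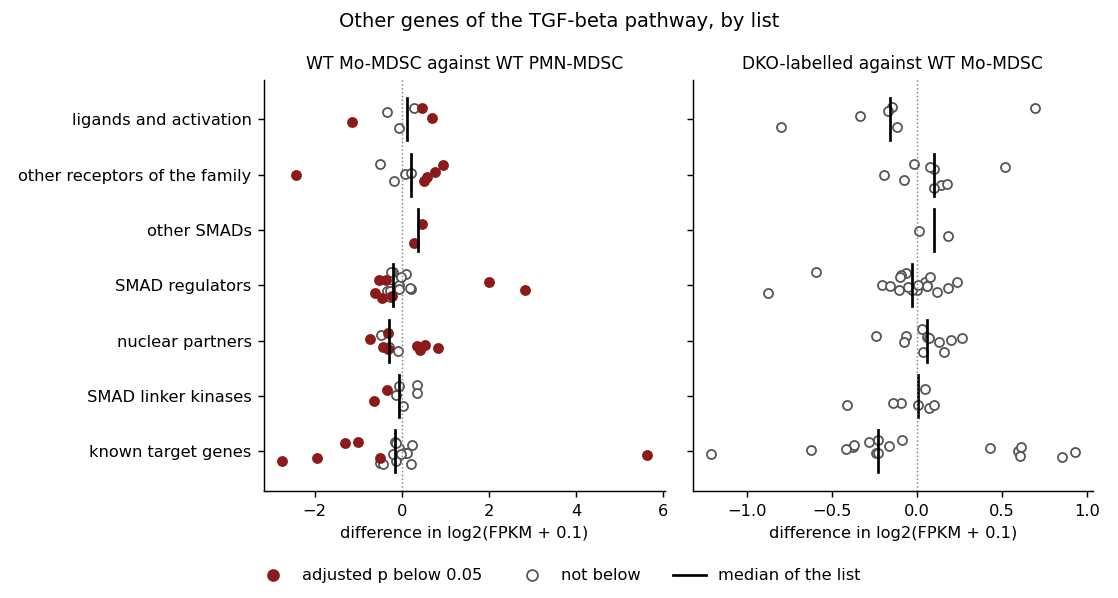
Difference in log2(FPKM + 0.1) (horizontal axes, on different scales left and right) for each tested gene of 7 pathway lists, in WT Mo-MDSCs against WT PMN-MDSCs and in DKO-labelled against WT Mo-MDSCs; filled points have an adjusted p below 0.05 and bars are medians. The left panel has 33 filled points and the right panel none.

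The comparison of DKO-labelled with WT Mo-MDSCs asks what loss of p16 and p21 changes within this subset. None of the 9 members differed, at an adjusted p below 0.05 or at an unadjusted p below 0.05 (limma, 11451 genes tested). Over all genes 0.253% passed the adjusted and 15.0% the unadjusted threshold, so few calls would be found among 9 genes of any kind. The differences ran from -0.07 (Smad4) to 0.12 (Ski) on the log2 scale, 6 of them positive and 3 negative, with a median of 0.07 beside -0.02 for all genes. The 95% confidence intervals of all 9 members lay within a change of 1.5-fold in either direction, which limits the size of any change without showing that the groups were alike. This comparison shares its WT Mo-MDSC samples with the previous one.

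Smad3, the SMAD that the study followed, had 9.05, 9.10 and 10.3 FPKM in WT Mo-MDSCs and 7.95, 9.20 and 10.5 FPKM in DKO-labelled samples. The lowest and the highest of these 6 values were both in the DKO-labelled group. The difference was -0.05 (SE 0.12, 95% confidence interval -0.33 to 0.24, adjusted p = 0.881, limma), and it was 0.024 with replicates 2 and 3 alone. Smad2 had 7.76, 5.79 and 6.85 FPKM against 7.49, 6.91 and 6.63 FPKM, and Smad4 had 24.1, 19.3 and 22.3 FPKM against 21.8, 19.6 and 21.1 FPKM. For both genes the DKO-labelled samples lay inside the range of the WT samples. Their differences were 0.05 (95% confidence interval -0.25 to 0.35) and -0.07 (-0.31 to 0.17).

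Tgfbr2 had 68.2, 64.3 and 67.3 FPKM in the DKO-labelled samples. The lowest of these was below the highest WT Mo-MDSC sample, and all were below every PMN-MDSC sample. Its difference from WT Mo-MDSCs was 0.10 (95% confidence interval -0.08 to 0.28, adjusted p = 0.573, limma). Tgfbr1 had 40.6, 36.6 and 34.8 FPKM, all inside the WT range, and differed by 0.08 (-0.20 to 0.37). Smad7 had 3.80, 3.31 and 3.56 FPKM, overlapping the WT samples, and differed by -0.05 (-0.34 to 0.24).

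Ski had 18.0, 19.7 and 19.4 FPKM in the DKO-labelled samples. It was the 1 member whose groups did not overlap, each DKO-labelled sample being above the highest WT sample of 17.7 FPKM. Groups did not overlap for 20.8% of all genes tested, 7.96% with the DKO-labelled samples higher, so 1 of 9 is within what genes in general showed. The difference in Ski was 0.12 (SE 0.08, 95% confidence interval -0.06 to 0.30, adjusted p = 0.501, limma). Tgif1 had 29.2, 26.7 and 30.2 FPKM and Skil had 13.2, 10.9 and 12.7 FPKM. Both overlapped the WT samples, with differences of 0.08 (-0.11 to 0.27) and 0.07 (-0.27 to 0.41).

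**Figure D4:**
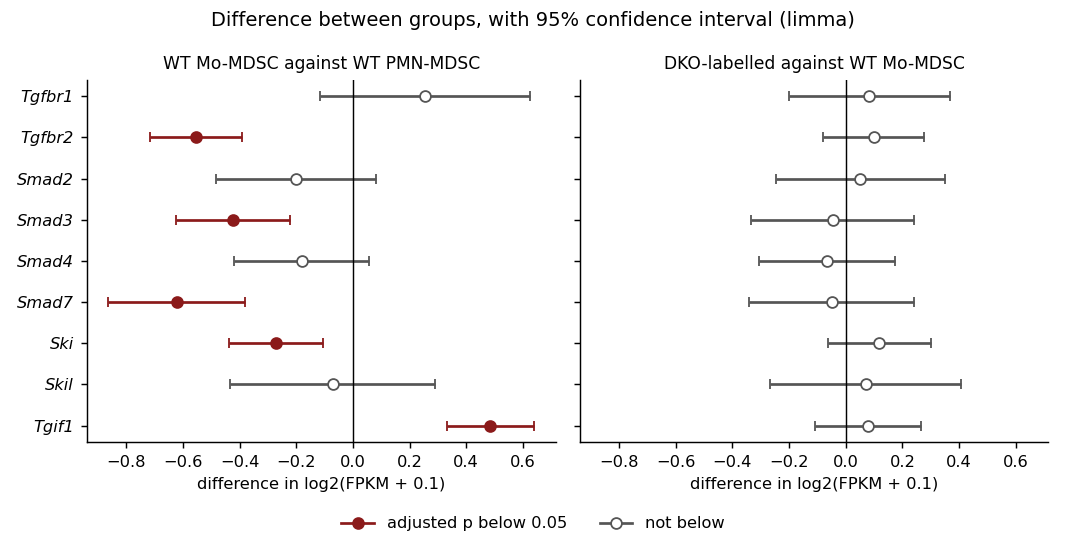
Difference in log2(FPKM + 0.1) of the 9 members (horizontal axis) with its 95% confidence interval from limma, for WT Mo-MDSCs against WT PMN-MDSCs (left) and DKO-labelled against WT Mo-MDSCs (right, same scale); filled points have an adjusted p below 0.05. On the left Tgfbr2, Smad3, Smad7 and Ski lie below 0 and Tgif1 above it with intervals that leave out 0, and on the right all 9 intervals include 0.

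None of 71 other pathway genes tested between DKO-labelled and WT Mo-MDSCs passed the adjusted threshold in limma, and 16 had an unadjusted p below 0.05, of which 10 were among 17 target genes. Of all genes tested, 15.0% had an unadjusted p below 0.05, and the lists were chosen with earlier results of these data known. The 17 target genes went both ways, 6 with positive and 11 with negative differences, from -1.21 to 0.93 on the log2 scale. Tgfb1 had 230, 222 and 233 FPKM in WT Mo-MDSCs and 199, 236 and 198 FPKM in the DKO-labelled samples. The difference of -0.12 (adjusted p = 0.589, limma) was within the spread and turned to 0.022 after quantile normalization. Cdk2 and Cdk4, kinases that p21 and p16 hold in check, differed by -0.09 (adjusted p = 0.688) and 0.07 (adjusted p = 0.728, limma). The 4 genes named next were chosen after their values were seen. Junb, with 118, 123 and 94.2 FPKM in DKO-labelled samples, had the lowest unadjusted p of the lists and a difference of -0.62 (adjusted p = 0.112, limma). Zfyve9 had 13.01, 11.8 and 11.5 FPKM, below every WT Mo-MDSC sample, with a difference of -0.60 (adjusted p = 0.141, limma). Id1 and Ctdspl had differences of -1.21 and -0.88 (adjusted p = 0.199 and 0.156, limma). Cx3cr1, the chemokine receptor gene that the study followed as a SMAD3 target, had 63.1, 49.6 and 56.8 FPKM in WT Mo-MDSCs and 35.6, 43.6 and 42.1 FPKM in the DKO-labelled samples. Every DKO-labelled sample was lower, and the difference of -0.48 (SE 0.12) had an adjusted p of 0.175 (limma). With replicates 2 and 3 only, the difference in Cx3cr1 was -0.31 (adjusted p = 0.522). Beside these values, the 7 markers of the Mo-MDSC gate, Cx3cr1 and Fn1 among them, summed to 2048 to 2323 FPKM in WT and 1665 to 1818 FPKM in DKO-labelled samples, 5 of 7 being lower in each DKO-labelled sample, and the 6 neutrophil markers to 4430 to 13945 and 1966 to 4196 FPKM. Of these 6 neutrophil markers, 3 were lower in each DKO-labelled sample and 2 overlapped. The other 1, Mmp8, was higher, at 71.7 to 112 FPKM against 42.3 to 55.2 FPKM in WT Mo-MDSCs. Of the 6 red-pulp macrophage markers, Spic was higher in each DKO-labelled sample, at 328 to 520 FPKM against 235 to 290 FPKM, and 5 overlapped. Of the 4 B-cell markers, Cd79b was higher in each DKO-labelled sample and 3 overlapped. The part of cell composition in these differences was not tested.

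Over the 9 samples, the genes whose log2 values were most like those of a member were looked up among 11725 others by Pearson's r. The points of these correlations share the same 9 libraries in 3 groups, so genes that separate PMN-MDSCs from Mo-MDSCs resemble each other. Tgif1 was most like Gabpb2 (r = 0.994), Ndor1 (0.994) and Nlrp1c-ps (0.993), Tgfbr2 most like Anubl1, Phf1 (both 0.991) and Chst15 (0.990). Ccdc63 (0.987) and Stk38l (0.986) were among the 3 genes most like Smad7. Smad3 was most like Zc3h14 (0.984), Slc36a3 (0.980) and Mbp (0.978), and Ski most like Ptafr (0.973), Map2k3 (0.973) and Dnajb1 (0.965). The highest values were lower for Skil with Cul1 (0.952) and for Smad2 with Sap18 (0.920), and were 0.980 for Smad4 with Xpr1 and 0.975 for Tgfbr1 with Coil.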

How the data were processed

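FPKM values were deposited by the authors for 9 samples and 23284 gene symbols. Per the methods and the submitters' processing notes, TruSeq stranded mRNA libraries were sequenced as 75-base single-end reads, mapped to mm10 with TopHat2 2.0.13, Bowtie2 2.2.3 and SAMtools 0.1.19, and quantified with Cuffnorm 2.2.1. The annotation and scaling option are not given in the sources used here. FPKM are not counts, and the depth in reads is unknown.

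The members, the lists of other genes and the markers were chosen with earlier results of these data known. Named genes are every member, other pathway genes past the threshold (at most 8 a list), Tgfb1, Cdk2, Cdk4, Cdkn1a, Cdkn2a and Cx3cr1, and the 3 genes most like each member. For 4 members 1 such gene is named. Lrrc33, Smurf1, Smurf2, Klf10 and Tgfbi between the subsets, and Junb, Zfyve9, Id1 and Ctdspl between the genotypes, lie outside this rule and were named after their values were seen. Some genes that the rule names are not reported here. Of the marker genes, 1 (Ly6g) was not analysed here, and Nrros was found under an older symbol.

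In each comparison, genes that reached 1 FPKM in 3 or more of its 6 samples were analysed as log2(FPKM + 0.1) with limma 3.58.1 (lmFit, eBayes with trend) in R 4.3.3, without covariates, and p-values were adjusted by Benjamini-Hochberg over all genes tested. Fold changes are on this scale. Single genes were also compared by a two-sided exact permutation test over 20 divisions of the samples. The fit was tested on simulated data. Replicate numbers come from the sample titles. Deviations of same-numbered samples from their group means correlated at 0.294, 0.483 and 0.200 between PMN-MDSCs and WT Mo-MDSCs, all above 0.1, so these samples were treated as paired in an alternative with a replicate block. Other alternatives were pseudocounts of 1 and 0.01, no filter, quantile normalization, median ratio scaling, all 9 samples in 1 fit, replicates 2 and 3 only, the unadjusted threshold and each sample omitted in turn. Python 3.11.15 with pandas 2.3.3 was used, and promoter windows came from RefSeq (GRCm38.p6).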

Additional observations from a re-analysis of the deposited data

How the results depend on the processing

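Between WT Mo-MDSCs and PMN-MDSCs, 5 members differed under every setting that kept all samples without a block, 7 with the replicate block, 3 with replicates 2 and 3 only, and 4 to 5 when 1 sample was left out. The count of 33 other pathway genes was 25 to 29 with 1 sample left out, 22 with replicates 2 and 3 only, 49 with the replicate block and 33 to 43 under the other settings. Over all genes, 4492 of 11491 passed in the fit reported above and 6584 with the replicate block. With replicates 2 and 3 only, 2759 of 11132 passed, and with 1 sample left out 3295 to 3864. The counts of members and pathway genes thus rose and fell with those of all genes. Among the members and 42 other named genes recomputed, the block changed the calls of Tgfbr1, Smad4, Cdk2, Smurf2 and Tgfbi and no other call. With 1 sample left out, Skil, at -0.07, ranged from -0.22 to 0.034, Cdk4 from -0.017 to 0.049 and Klf10, at 0.07, from -0.020 to 0.14. Klf10 was at -0.079 with replicates 2 and 3 only, and Lrrc33 turned from -0.07 to 0.27 after quantile normalization.

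Between DKO-labelled and WT Mo-MDSCs, 0 members differed under every alternative, and the 16 pathway genes at an unadjusted p below 0.05 are the one count that left 0. With the replicate block there were 0 calls in both lists and 20 in place of 29 over all genes. Same-numbered samples correlated at 0.348, 0.226 and -0.070 here, and 4 of 6 samples correlated best with their own number. Not all 3 were above 0.1, so the numbers were not taken to pair these samples, although replicate 1 of both groups came from the earlier library series. Over all genes 8 to 25 passed with 1 sample left out. Smad3 turned to 0.024 with replicates 2 and 3 only and Tgfb1 to 0.022 after quantile normalization. With 1 sample left out, Smad3 ranged from -0.15 to 0.056, Smad4 from -0.15 to 0.0063, Tgfbr1 from -0.022 to 0.19, Smad2 from -0.057 to 0.15 and Skil from -0.030 to 0.21, and none of these passed the threshold. The cause of these changes was not tested. No scaling moved the median of all genes by more than 0.06. Single genes moved more between the subsets after quantile normalization, Tgfbr2 from -0.55 to -0.28 and Tgfb1 from 0.47 to 0.88.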
